A study of Mus musculus with 12 samples.

Results

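Myocardium, the muscle of the heart, was compared between mice that received prednisone once a week after a myocardial infarction (MI) and mice that received vehicle after the same surgery. The members of this comparison are 6 of the 12 libraries of the study, 3 MI vehicle and 3 MI prednisone mice, taken by their labels. All mice were male C57BL/6 wild type animals of about 10 weeks at treatment and about 16 weeks in the model description. Prednisone was injected into the peritoneum at 1 mg/kg at lights-on, from 2 weeks after surgery and for 6 weeks, and heart tissue was collected 24 hours after the last injection. The vehicle mice followed the same weekly plan for 6 weeks, and the drug came from a DMSO stock given in PBS. The sham-operated mice, 3 on vehicle and 3 on prednisone, had the same treatments without infarction and are given beside the MI values. The labels name the tissue only as myocardium, so the position of each piece relative to the scar is not known here. Each library came from 1 mouse, and p-values measure the spread between these mice.

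Prednisone is a synthetic glucocorticoid that acts after conversion to prednisolone. It binds the glucocorticoid receptor (*Nr3c1*), which enters the nucleus and activates genes such as *Fkbp5*, *Per1*, *Klf9* and *Tsc22d3* and restrains inflammatory genes. After an infarction, dead muscle is replaced by a collagen scar made by fibroblasts, while surviving muscle cells remodel and macrophages clear debris. Cardiomyocytes depend on mitochondrial respiration, whose complexes are built from many small proteins encoded in the nucleus and a few encoded in mitochondrial DNA.

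The values are TPM (transcripts per 1000000), which are shares of a library and carry no read depth, so the number of reads behind a value is unknown. Transcripts were summed to genes, and limma tested the 13158 genes that reached 1 TPM in 3 or more libraries on log2(TPM + 1). Differences below are on that scale, which understates the change of low genes. MI vehicle mouse 3 stood apart from the other 11 libraries: 14307 genes reached 1 TPM there, against 11690 to 12772 elsewhere, and its median gene lay 0.74 above the sham vehicle mean on the log2 scale, against -0.07 to 0.25 elsewhere. Mitochondrially encoded RNA took 21.6% to 42.0% of TPM. The median of all tested genes was 0.41 lower in MI prednisone than in MI vehicle, and 0.22 lower without MI vehicle mouse 3. Because of that shift, 2 scales are used: TPM as deposited, and TPM rescaled by median ratios, which centres the median change at -0.02. A gene is said to have risen or fallen when limma called it on both scales in the same direction at an adjusted p under 0.05.

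Of the 13158 genes, 4917 (37.4%) were called on TPM as deposited, 329 higher (2.5%) and 4588 lower (34.9%) with prednisone. On rescaled values 3787 were called (28.8%), 1917 higher and 1870 lower. On both scales in the same direction, 329 genes rose (2.5%) and 1870 fell (14.2%), and no gene was called in opposite directions. These are all the genes called higher as deposited and all those called lower after rescaling. Rescaling moved the median change up from -0.41 to -0.02, so the lack of opposite calls is no independent evidence. The excess of falls over rises depends on the scale. In 46.2% of genes the 3 prednisone values did not overlap the 3 vehicle values, and in 38.1% after rescaling. In sham hearts, prednisone changed 15 genes (0.114%) by the same limma test on TPM as deposited, 7 higher (0.0532%) and 8 lower (0.0608%), with 469 genes at an unadjusted p under 0.05. Fitted on the 6 MI libraries alone, without the spread of the sham mice, limma called 808 genes, 31 higher and 777 lower. Without MI prednisone mouse 1 the count was 3245. Without MI vehicle mouse 3, rescaled, 1765 genes were called higher and 1814 lower, and 1785 of the 2199 genes called both ways kept their call.

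**Figure D1:**
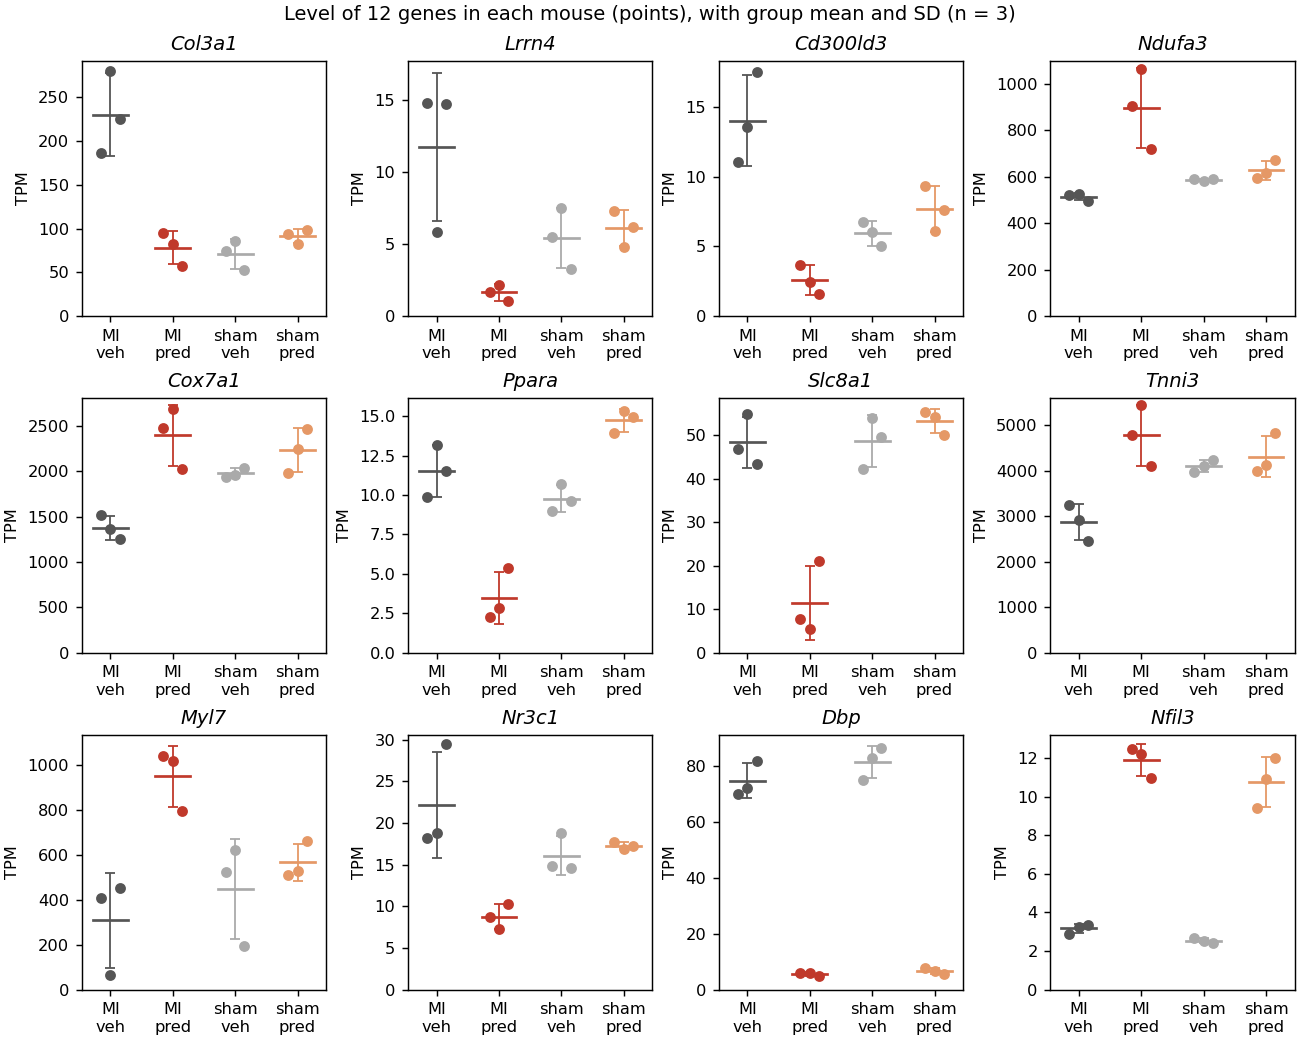
TPM (vertical axis, linear from 0) of 12 genes in each of the 12 mice, by group; the horizontal line is the group mean and the bar its SD (n = 3). Col3a1, Lrrn4, Cd300ld3, Ppara, Slc8a1 and Nr3c1 are lower in all 3 MI prednisone mice than in all 3 MI vehicle mice, Ndufa3, Cox7a1, Tnni3 and Myl7 are higher, and Dbp and Nfil3 separate prednisone from vehicle in sham as well as in MI.

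Many genes of the extracellular matrix fell. Of 53 tested, 25 fell and none rose, against backgrounds of 14.2% and 2.5%, and their median change lay -0.65 from that of all genes. *Col3a1* (chromosome 1, 45311538 to 45349706), the fibrillar collagen of early scar, stood at 186, 280.2 and 225 TPM in MI vehicle and 94.6, 82.2 and 57.5 in MI prednisone. The groups do not overlap, and the prednisone values overlap the sham vehicle values of 74.3, 86.1 and 52.7 TPM. The log2 change was -1.56 (SE 0.22, limma adjusted p = 0.00108). *Dcn*, which encodes the collagen-binding proteoglycan decorin and is among the most abundant matrix genes of the list, stood at 542, 556 and 585 TPM and 327, 233 and 188 with prednisone, with sham vehicle at 295, 339.8 and 263. *Thbs1* (thrombospondin, a matricellular protein that activates TGF-beta) went from 9.92, 36.9 and 20.5 TPM to 3.72, 5.90 and 3.00, a log2 change of -2.03. *Sfrp2*, a secreted Wnt modulator of scar fibroblasts, had 25.2, 64.0 and 42.0 TPM in vehicle and 21.3, 10.9 and 4.0 with prednisone. All 3 *Sfrp2* prednisone values lie above the sham vehicle values of 2.50, 3.33 and 1.77.

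*Col1a1*, the main collagen of mature scar, stood at 40.1, 89.5 and 44.1 TPM in MI vehicle and 20.7, 15.7 and 14.4 with prednisone, with sham vehicle at 13.9, 16.9 and 11.8. Its log2 change was -1.64 (limma adjusted p = 0.0017). When only protein-coding transcripts were summed, 41 of 51 matrix genes were called lower as deposited against a background of 45.3% (47.5% in either direction), and 23 also after rescaling. Their median lay -0.66 from all genes by coding sums and -0.59 after correction for transcript length. After that correction 15 of 51 matrix genes were called lower and 5 higher, against backgrounds of 9.27% and 8.65%. Of 16 fibroblast markers 5 fell and none rose, where 14.2% of all genes fell and 2.5% rose. Relative to sham vehicle and the median gene they stood at 0.38, 0.50 and 0.19 in MI vehicle and 0.45, 0.14 and -0.20 in MI prednisone, where mouse 1 lies inside the vehicle range. In bulk tissue, fewer cells of a type and less RNA per cell cannot be told apart. *Postn* (periostin, made by activated fibroblasts) was not called as a gene, at 44.0, 119 and 76.4 TPM against 79.0, 57.5 and 37.9, a log2 change of -0.40 (limma adjusted p = 0.345). Without MI vehicle mouse 1 it was -0.77 (limma adjusted p = 0.0465). Its transcripts moved apart: tested one by one as deposited, the 3189-base coding transcript fell from 21.2, 53.2 and 36.5 TPM to 15.5, 11.3 and 11.5, while a 655-base coding transcript rose from 2.72, 9.28 and 4.71 to 33.1, 24.8 and 11.9.

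Markers of the epicardium, the mesothelial sheet that covers the heart, fell in 5 of 10 and rose in none. Of all genes 14.2% fell and 2.5% rose. *Lrrn4* (chromosome 2, 132868305 to 132880891) had 14.8, 5.84 and 14.7 TPM in MI vehicle and 1.67, 2.19 and 1.06 in MI prednisone, where every value is also below the sham vehicle values of 5.51, 7.48 and 3.29. Its log2 change was -2.20 (SE 0.34, limma adjusted p = 0.00151). *Upk1b*, *Upk3b* and *Msln*, 3 further mesothelial surface genes, changed by -1.95, -1.67 and -1.45. *Wt1*, the transcription factor of epicardial cells, was chosen after its values were seen and changed by -1.12. The other 5, 3 keratins and *Tbx18* and *Muc16*, were not called on both scales. The summed level of all 10 was 132, 106 and 297 TPM in MI vehicle and 49.1, 188 and 37.4 TPM in MI prednisone, so the sums overlap through MI prednisone mouse 2. Without that mouse the list median lay -1.18 from all genes, against -0.47 with it.

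Macrophage and myeloid markers fell in 7 of 27 and rose in none, where 14.2% of all genes fell. Relative to sham vehicle and the median gene, the list stood at 0.61, 1.05 and 0.62 in MI vehicle and 0.74, 0.26 and -0.01 in MI prednisone, so the groups overlap through MI prednisone mouse 1. *Cd300ld3* (chromosome 11, 115042131 to 115048409), a receptor of the myeloid CD300 family, had 11.1, 13.6 and 17.5 TPM in MI vehicle and 3.71, 2.48 and 1.62 with prednisone, against 6.75, 6.05 and 5.02 in sham vehicle. All 3 prednisone values lie below the sham values too. *Lyve1*, a hyaluronan receptor of resident macrophages and lymphatic endothelium, changed by -1.67 and *Spp1* (osteopontin, made by macrophages in damaged tissue) by -1.62. *Lyz2*, lysozyme, an abundant myeloid marker, stood at 371, 467 and 973 TPM and 303, 359.6 and 174. Its change of -1.05 was called as deposited (limma adjusted p = 0.0354) and not after rescaling (limma adjusted p = 0.0951), and the call was also lost without MI prednisone mouse 1 (limma adjusted p = 0.0626), without MI prednisone mouse 3 (-0.74, limma adjusted p = 0.129) and without MI vehicle mouse 3 (-0.64, limma adjusted p = 0.114).

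Lymphocyte and plasma cell markers were not called in either direction in any of 18 tested. *Igkc*, the constant part of the kappa light chain, stood at 1353, 40.6 and 3701 TPM in the 3 vehicle mice and 501, 493 and 114 in the 3 prednisone mice, so its groups overlap across a wide range. *Igkv6-17*, a single variable segment of that light chain, had the largest fall among named genes (-3.63), with 4.49, 4.59 and 92.5 TPM in vehicle and 0, 0 and 0.498 with prednisone. The value of MI vehicle mouse 3 sets most of that mean, and without it the change was -2.27 (limma adjusted p = 0.0593). The call was also lost without MI prednisone mouse 1 or 2 (limma adjusted p = 0.0646 and 0.0609). In cell cycle genes MI vehicle mouse 3 was again the highest. *Rrm2*, a subunit of the enzyme that makes deoxyribonucleotides, had 2.46, 4.83 and 32.9 TPM against 1.54, 1.36 and 1.27, and *Ccnb1*, cyclin B1, 1.06, 1.96 and 14.1 against 0.460, 0.334 and 0.442. Of 28 cell cycle genes 6 fell, where 14.2% of all genes fell, and 2 of 27 were called lower after length correction, where the background was 9.27%. *Rrm2* and *Ccnb1* lost the call when any 1 of the 3 prednisone mice was left out (limma adjusted p = 0.0744 to 0.0884). Without MI vehicle mouse 3 the changes were -0.91 and -0.81, against -1.88 and -1.68 with it. The summed lymphocyte markers stood at 2218, 87.3 and 6773 TPM in MI vehicle and 731, 733 and 173 in MI prednisone. Their part in the matrix and myeloid falls was not tested.

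Many nuclear-encoded subunits of the respiratory chain rose. Of 37 genes of the complex I list 27 rose and none fell, where 2.5% of all genes rose. In the complex III list 5 of 9 rose, in complex IV 12 of 15 and in ATP synthase 14 of 17. The complex I list was taken by gene symbol. It holds *Ndufa4l2* and also *Ndufa4*, which is counted in the complex IV list as well. The list medians lay 0.82, 0.83, 0.98 and 0.90 above all genes, and 0.61, 0.62, 0.77 and 0.63 above without MI vehicle mouse 3. None of the 4 complex II subunits rose or fell. Their median lay 0.40 above all genes, and 0.18 above without MI vehicle mouse 3. Relative to sham vehicle and the median gene they stood at -0.39, -0.50 and -1.08 in MI vehicle. In MI prednisone they stood at -0.39, -0.34 and -0.21, below 0 in all 3 mice, so the groups meet at -0.39. Relative to the sham vehicle mean and the median gene, complex I stood at -0.30, -0.40 and -0.97 in the 3 MI vehicle mice and at 0.30, 0.39 and 0.13 in the 3 MI prednisone mice, so vehicle lay below sham and prednisone above it. The 3 sham prednisone mice were at -0.07, 0.01 and 0.06. The order was the same in complex IV and ATP synthase. In complex III, vehicle lay below sham, but MI prednisone mouse 3 stood at 0.05 and sham vehicle mouse 3 at 0.08.

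**Figure D2:**
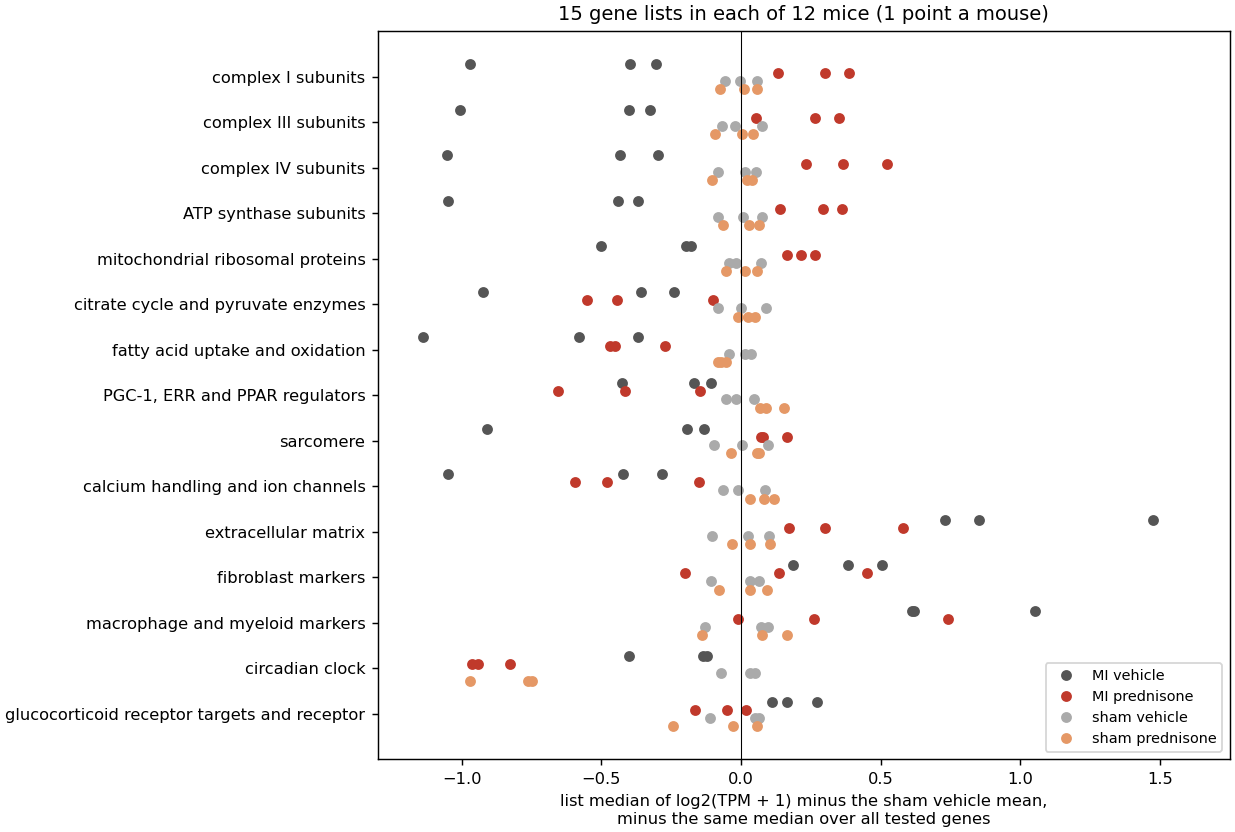
Median of each of 15 gene lists in each mouse (1 point a mouse): log2(TPM + 1) minus the sham vehicle mean, minus the same median over all tested genes. Complexes I, III and IV and ATP synthase lie left of 0 in MI vehicle and right of 0 in MI prednisone, extracellular matrix genes lie at 0.73 to 1.47 in MI vehicle and 0.17 to 0.58 in MI prednisone, and circadian clock genes lie left of 0 in both prednisone groups.

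*Ndufa3* (chromosome 7, 3617373 to 3620327), a small accessory subunit of complex I, stood at 520.2, 526 and 496 TPM in MI vehicle and 905, 1065 and 719.9 in MI prednisone. These values do not overlap each other or the sham vehicle values of 589.9, 579.7 and 589. The log2 change was 0.78 (SE 0.13, limma adjusted p = 0.00166). *Ndufa5*, and the abundant *Ndufa4* that is in both the complex I and complex IV lists, changed by 0.78 and 0.70. In complex III, *Uqcrq* and *Uqcr11* changed by 0.66 and 0.55. In complex IV, *Cox7a1* (the muscle form of subunit 7a) went from 1515, 1363 and 1253 TPM to 2479.9, 2686 and 2029, and *Cox4i2*, an isoform of subunit 4, from 10.3, 11.6 and 9.77 to 18.6, 18.1 and 19.4. The common isoform *Cox4i1* changed by 0.46, with 1622, 1654 and 1634 TPM in vehicle and 2275, 2638 and 1912 with prednisone. *Atp5k*, the small e subunit of ATP synthase, changed by 0.61. *Sdhb*, the iron-sulphur subunit of complex II, was at 519.8, 538 and 506 TPM against 549, 627 and 559.6 (limma adjusted p = 0.211).

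Coding transcripts alone also rose in many subunits. Of those with a tested coding sum, 20 of 30 in complex I, 5 of 8 in complex III, 12 of 14 in complex IV and 11 of 16 in ATP synthase rose by that sum, where 2.17% of all genes were called higher as deposited. Subunit messages are short, with a median length of 695 bases in complex I against 1976 in the sarcomere list, 2222 in the citrate cycle list and 3784 in the matrix list, and in MI the change with prednisone went with length across all genes. After correction for length, 17 of 32 complex I, 3 of 8 complex III, 8 of 14 complex IV and 8 of 16 ATP synthase genes were still called higher, against a background of 8.65%, and the medians were 0.46, 0.44, 0.61 and 0.50. Of 78 mitochondrial ribosomal proteins, which translate the mitochondrial genome, 17 rose and none fell, where 2.5% of all genes rose. Of 86 cytosolic ribosomal proteins, whose median length is 671 bases, 2 rose and 1 fell. On rescaled values alone 34 of them were called higher and 1 lower, where 14.6% of all genes were called higher. As deposited, their median lay 0.28 above all genes. Their length-corrected median lay -0.06 from all genes, against 0.27 for the mitochondrial ones. *Rpl10*, a large-subunit protein with many near-identical copies in the genome, fell by 1.21.

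Of the 13 mitochondrially encoded mRNAs, 1 rose. It was *mt-Nd3*, a complex I subunit, at 9598, 12837 and 8095 TPM in MI vehicle and 18764, 12999 and 17568 in MI prednisone, a log2 change of 0.70 that was not called after length correction (limma adjusted p = 0.186) or without MI prednisone mouse 1 (0.60, limma adjusted p = 0.0585). The sum of all 13 overlapped between groups, at 351693, 366847 and 230882 TPM and 246475, 216167 and 359187. Of the other 12, 2 were called lower as deposited and none on both scales.

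Some transcriptional regulators of mitochondrial and lipid genes fell. Of 16 genes of the PGC-1, ERR and PPAR group 6 fell and none rose, where 14.2% of all genes fell and 2.5% rose. Relative to sham vehicle and the median gene, their median overlapped between groups, at -0.11, -0.17 and -0.43 in MI vehicle and -0.42, -0.65 and -0.15 in MI prednisone. *Ppara* (chromosome 15, 85734983 to 85802819), the nuclear receptor that activates fatty acid oxidation, stood at 9.87, 13.2 and 11.5 TPM in MI vehicle and 2.25, 2.85 and 5.38 in MI prednisone. All 3 prednisone values were below every value of the other groups, and sham prednisone was highest at 13.9, 15.3 and 15. Its log2 change was -1.53 (SE 0.21, limma adjusted p = 0.00105). *Gabpa*, which encodes the DNA-binding subunit of NRF-2, an activator of respiratory chain genes, went from 15.6, 14.6 and 19.6 TPM to 5.57, 6.39 and 7.22, a change of -1.25. *Ppargc1a* (the coactivator PGC-1 alpha) had 12, 13.8 and 10.6 TPM against 5.00, 4.39 and 8.08, and was called as deposited (-0.98, limma adjusted p = 0.00338) but not after rescaling (limma adjusted p = 0.113) or length correction (limma adjusted p = 0.285).

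Fuel enzymes changed little as a list. Of 27 citrate cycle and pyruvate enzymes 2 rose and none fell, where 2.5% of all genes rose and 14.2% fell. *Fh1*, fumarate hydratase, went from 182, 174 and 175 TPM to 242, 276 and 238, and its coding sum changed by 0.51. *Mpc2* (chromosome 1, 165460637 to 165481214), a subunit of the mitochondrial pyruvate carrier, went from 256, 254 and 263 TPM to 419.8, 424 and 328 as a gene. Its 1025-base coding transcript stood at 247, 232 and 232 TPM against 254, 284 and 259 (change 0.16, limma adjusted p = 0.23), and a 493-base noncoding transcript at 8.14, 20.3 and 29.5 against 164, 139 and 67.2 (change 2.69, limma adjusted p = 0.00847). By coding sums, 11 of 25 enzymes of this list were called lower as deposited, where the background was 45.3%, and none was lower after rescaling as well. *Pdpr* (chromosome 8, 111094630 to 111137074), the regulatory subunit of pyruvate dehydrogenase phosphatase, fell from 23.2, 19.8 and 19.1 TPM to 2.76, 2.40 and 8.04, a change of -2.15. Its coding sum fell alike (-2.17).

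Of 28 fatty acid genes 1 fell and none rose. It was *Cpt1a*, the liver-type carnitine transferase that admits fatty acids to mitochondria, at 15, 19.5 and 26.5 TPM against 6.42, 7.63 and 7.73. *Gpam* (chromosome 19, 55067268 to 55127238), the mitochondrial acyltransferase that starts triglyceride synthesis, fell from 42.0, 45.3 and 39.8 TPM to 7.06, 5.77 and 14.5, with all sham values between 37.8 and 54.8. Its log2 change was -2.20 (SE 0.25, limma adjusted p = 0.000557). Of 20 glycolysis genes 3 rose, where 2.5% of all genes rose. Among them *Pgam2*, the muscle phosphoglycerate mutase, went from 497, 523 and 448 TPM to 692, 706 and 618. Summed adipocyte markers stood at 1059, 55 and 2571 TPM in MI vehicle and 474, 1418 and 468 TPM in MI prednisone, and none of the 10 was called.

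In the contractile apparatus, 7 of 25 sarcomere genes rose and 1 fell, where 2.5% of all genes rose and 14.2% fell. *Tnni3*, cardiac troponin I, stood at 3261, 2919 and 2455 TPM in MI vehicle and 4786, 5455 and 4100.2 in MI prednisone, with sham vehicle at 3981, 4099.5 and 4239.7. The MI groups do not overlap, and MI prednisone mouse 3 lies inside the sham range. *Myl2*, the ventricular regulatory light chain, changed by 0.59. *Myh7b*, a slow-type myosin heavy chain whose gene also carries the microRNA miR-499, went from 7.83, 6.10 and 4.39 TPM to 15.6, 20.7 and 12.3, a change of 1.27 (SE 0.22, limma adjusted p = 0.00206) and 0.99 by its coding sum. The gene that fell was *Nebl*, nebulette, an actin-binding protein of the Z-disc, from 71.3, 79.7 and 83.7 TPM to 23.3, 20.5 and 41.3. Of 28 calcium handling and ion channel genes 1 rose and 1 fell. *Slc8a1* (chromosome 17, 81373105 to 81738377), the sodium-calcium exchanger that removes calcium after each beat, had 46.8, 54.9 and 43.4 TPM in MI vehicle and 7.73, 5.45 and 21.2 in MI prednisone. MI prednisone mouse 3 had the highest value of its group, and all 3 lay below the 6 sham values of 42.2 to 55.2 TPM. The log2 change was -2.19 (SE 0.34, limma adjusted p = 0.00151), and -2.24 by its coding sum. *S100a1*, a calcium sensor that stimulates the calcium pump, rose by 0.37 and lost the call without MI prednisone mouse 2 (limma adjusted p = 0.0584). The pump itself, *Atp2a2*, went from 2057, 1937 and 1601 TPM to 1144, 926 and 1752, called as deposited (-0.59, limma adjusted p = 0.0329) and not after rescaling (limma adjusted p = 0.759). Its groups overlap, and the call was lost without MI prednisone mouse 1 or 2 or MI vehicle mouse 1 or 2 (limma adjusted p = 0.0695 to 0.109).

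The largest gene-level rises named by size were *Myl7* (2.04), *Sln* (2.03) and *Myl4* (1.98), all genes of atrial muscle: the atrial regulatory light chain, the calcium pump inhibitor sarcolipin and the atrial essential light chain. *Myl7* stood at 409, 64.0 and 450.4 TPM in MI vehicle and 1036, 1015 and 793 in MI prednisone, and *Sln* at 44.9, 7.14 and 43.6 and 118, 106 and 87.5. MI vehicle mouse 2 was low for all 3 genes, as was sham vehicle mouse 3 (195 TPM of *Myl7* against 523 and 619). Without MI vehicle mouse 2 the changes of *Myl7*, *Sln* and *Myl4* were 1.13, 1.20 and 1.07, and *Myl4* was not called (limma adjusted p = 0.0501). *Myl7* and *Myl4* also lost the call without any 1 of the 3 prednisone mice (limma adjusted p = 0.0514 to 0.0821), and *Sln* without MI prednisone mouse 1 or 2 (limma adjusted p = 0.0657 and 0.0558). The natriuretic peptides *Nppa* and *Nppb*, also made by atrial and stretched ventricular muscle, were not called (limma adjusted p = 0.49 and 0.194). *Nppa* was at 2049.7, 2840.4 and 3228 TPM against 4251, 2870.2 and 2837. The amount of atrium in each piece was not tested. *Stard10*, a lipid transfer protein, was also lowest in MI vehicle mouse 2, at 41.9, 17.8 and 47.1 TPM against 94.0, 85.6 and 73.8.

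Other large changes belonged to none of these lists. *Lgals4*, an epithelial galectin, went from 9.23, 7.44 and 5.89 TPM to 19.5, 38.0 and 16.6, where sham vehicle was 22.6, 21.9 and 18.9. *Cited4*, a CBP/p300-binding coregulator of heart growth, went from 11.4, 15.4 and 12.7 TPM to 30.8, 24.0 and 25.6. *Nt5c1a*, a cytosolic nucleotidase that makes adenosine, fell from 11.6, 9.36 and 7.95 TPM to 0.570, 0.321 and 4.26. *Pakap*, an A-kinase anchoring locus, fell from 7.01, 8.62 and 7.44 TPM to 0.126, 0.397 and 1.11 (change -2.54, SE 0.21, limma adjusted p = 0.000105). *Olfr1033* (chromosome 2, 86020633 to 86045171), listed as an olfactory receptor, fell from 592, 749.6 and 777 TPM to 166, 198 and 122; nearly all of its TPM belongs to a single 316-base transcript. Other lists held some genes that fell, where 14.2% of all genes fell: 13 of 36 chromatin regulators with long messages (*Kdm5a* -1.41, *Atrx* -1.37), 5 of 25 interferon-stimulated genes (*Gbp7* -1.11), 4 of 20 atrophy and autophagy genes (*Lamp2* -1.19, *Foxo3* -0.95) and 3 of 39 spliceosome and hnRNP genes (*Hnrnpk* -1.13). The spliceosome share is below that of all genes and the interferon and atrophy shares are near it, and 1 interferon-stimulated gene and 1 atrophy and autophagy gene rose. The median of the chromatin list lay -0.34 from all genes, and -0.06 after length correction. No member of the NAD metabolism list (18 tested), the heat shock and unfolded protein list (25) or the proteasome list (37) was called on both scales. As deposited, limma called 7, 4 and 4 of them lower, where 34.9% of all genes were called lower. On rescaled values 2, 10 and 18 of them were called higher and none lower, where 14.6% of all genes were called higher.

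None of the glucocorticoid targets rose 24 hours after the last injection. Of 22 tested, the receptor included, 6 fell and none rose, where 14.2% of all genes fell. By coding sums 3 of 18 fell on both scales, where 15.9% of all coding sums were called lower after rescaling. *Nr3c1*, the receptor, went from 18.2, 18.8 and 29.5 TPM to 8.72, 7.32 and 10.3, against 14.9, 18.8 and 14.6 in sham vehicle. The prednisone values are below all sham values, and the log2 change was -1.22 (SE 0.18, limma adjusted p = 0.00141). *Klf9*, a zinc finger factor induced by the receptor, went from 37.0, 35.2 and 39.9 TPM to 8.18, 7.11 and 16.1. *Fkbp5*, the co-chaperone that dampens the receptor, had 7.40, 7.82 and 32.7 TPM in vehicle and 3.81, 3.46 and 4.23 with prednisone. MI vehicle mouse 3 holds the high value, and without it the change was -0.84 (limma adjusted p = 0.00781) against -1.49 with it. The call was lost without MI prednisone mouse 1 or 2 (limma adjusted p = 0.0537 and 0.057). *Tsc22d3* (GILZ), a classical early target, was at 55.5, 61.2 and 109 TPM against 52.5, 42.3 and 47.9 and was not called (limma adjusted p = 0.0688), but was without MI vehicle mouse 1 (-0.77, limma adjusted p = 0.0255). *Ptgds*, an abundant prostaglandin synthase of the list, was not called at 254, 322 and 212 TPM against 355, 333 and 379.8, but was without MI vehicle mouse 2 (0.61, limma adjusted p = 0.0306).

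Circadian clock genes separated prednisone from vehicle after both surgeries. The clock is a loop in which BMAL1 (*Arntl*) and CLOCK activate genes through E-box elements, PER and CRY proteins close the loop, REV-ERB (*Nr1d1*, *Nr1d2*) and ROR receptors act through RORE elements, and DBP, TEF and HLF against NFIL3 through D-box elements. Promoters of 4 members that hold these letters are shown because each holds one of these elements. They are 300 bases each, 250 before to 50 after the annotated start, from RefSeq on GRCm38.p6, with the motif in capitals. The motifs searched on both strands were CACGTG (E-box), TTANGTAA (D-box) and TAGGTCA (RORE). They occur in 7.15%, 2.32% and 2.61% of 32851 promoters of this length, and in 7, 1 and 2 of the 24 promoters matched to 18 of the 22 clock genes. In the 4 promoters shown no motif overlaps another, and the capitals of Nfil3 are the RORE on the opposite strand. The 6 clock genes found with an E-box in these promoters do not include *Dbp* or *Nr1d1*. A match describes letters and is not a measured binding site.
Nfil3 (chr13:52980990-52981289, minus strand, 1 RORE): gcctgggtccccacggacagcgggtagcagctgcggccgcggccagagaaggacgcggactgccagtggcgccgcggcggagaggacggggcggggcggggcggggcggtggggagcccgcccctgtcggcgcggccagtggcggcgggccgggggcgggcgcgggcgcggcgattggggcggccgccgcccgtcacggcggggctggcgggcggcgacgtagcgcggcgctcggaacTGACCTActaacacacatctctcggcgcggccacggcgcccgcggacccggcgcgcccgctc
Arntl (chr7:113207261-113207560, plus strand, 1 RORE, the second of 2 listed promoters): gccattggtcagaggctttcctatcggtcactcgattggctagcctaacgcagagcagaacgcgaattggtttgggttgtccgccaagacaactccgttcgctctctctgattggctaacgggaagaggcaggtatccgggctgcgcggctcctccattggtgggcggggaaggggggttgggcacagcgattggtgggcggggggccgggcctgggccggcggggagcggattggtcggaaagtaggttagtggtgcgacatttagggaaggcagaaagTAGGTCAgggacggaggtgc
Ciart (chr3:95882179-95882478, minus strand, 3 E-boxes): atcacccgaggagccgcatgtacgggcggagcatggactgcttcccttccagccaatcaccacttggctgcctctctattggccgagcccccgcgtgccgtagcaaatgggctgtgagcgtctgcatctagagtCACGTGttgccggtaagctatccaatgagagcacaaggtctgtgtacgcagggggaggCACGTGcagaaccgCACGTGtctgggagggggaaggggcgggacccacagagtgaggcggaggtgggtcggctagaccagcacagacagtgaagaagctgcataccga
Per3 (chr4:151044616-151044915, minus strand, 2 D-boxes): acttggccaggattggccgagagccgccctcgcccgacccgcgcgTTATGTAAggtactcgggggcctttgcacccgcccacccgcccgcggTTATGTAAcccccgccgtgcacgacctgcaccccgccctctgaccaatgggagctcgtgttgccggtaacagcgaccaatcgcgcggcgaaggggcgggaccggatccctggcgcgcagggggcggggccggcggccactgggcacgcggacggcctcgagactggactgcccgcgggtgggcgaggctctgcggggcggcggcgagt

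Of 22 clock genes 16 fell and 1 rose in MI, where 14.2% of all genes fell and 2.5% rose. *Dbp* (chromosome 7, 45705088 to 45710203), the D-box activator, stood at 70.2, 72.1 and 81.9 TPM in MI vehicle and 5.93, 5.95 and 4.84 in MI prednisone, and at 75.2, 82.8 and 86.5 and 7.73, 6.61 and 5.44 in the sham groups. The mice of each treatment hold together regardless of surgery, and the log2 change was -3.53 in MI (SE 0.13, limma adjusted p = 2.47e-07) and -3.45 in sham. *Nr1d1*, which encodes REV-ERB alpha, went from 50.1, 47.6 and 53.2 TPM to 8.61, 9.80 and 11.1 in MI, a change of -2.25, and changed by -1.58 in sham. *Nfil3*, the D-box repressor, was the member that rose, from 2.90, 3.24 and 3.36 TPM to 12.5, 12.2 and 10.9, against 2.64, 2.53 and 2.39 and 9.42, 10.9 and 12 in sham. *Arntl*, whose second promoter holds a RORE as *Nfil3* does, had 2.90, 3.75 and 8.26 TPM in MI vehicle and 7.47, 8.65 and 8.45 in MI prednisone. MI vehicle mouse 3 lies inside the prednisone range, and the change of 0.72 was not called (limma adjusted p = 0.0567) but was 1.09 without that mouse (limma adjusted p = 0.00197). In sham, *Arntl* went from 1.87, 2.40 and 1.46 TPM to 10.4, 8.90 and 12.4.

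*Ciart*, an E-box-driven repressor of the loop, and *Per3*, a period gene, were chosen after their values were seen. *Ciart* was at 4.69, 8.93 and 7.10 TPM in MI vehicle and 2.40, 2.45 and 2.39 with prednisone, and was called as deposited (limma adjusted p = 0.0107) but not after rescaling (limma adjusted p = 0.0658). *Per3* changed by -0.87 in MI and -1.34 in sham. *Per1*, which is both an E-box gene of the clock and a direct receptor target, went from 14.6, 18.3 and 21 TPM to 3.23, 5.96 and 6.22 in MI and from 11.3, 16.6 and 15.8 to 8.33, 8.74 and 2.84 in sham, where it was not called (limma adjusted p = 0.978). *Tef* (-0.88 in MI, -0.91 in sham), a relative of DBP, also went down in both. Of the 22 genes, 20 had a change of the same sign in MI and in sham, and this share was not computed over all genes. The list holds 22 of the 13158 tested genes, and 8 of the 15 genes called in sham were on it. In MI, 12 of those 15 were called in the same direction, where 37.4% of all genes were called as deposited. As deposited, the difference between the effects in MI and in sham was called in 21.3% of all genes, with the MI effect lower in 20.7%. In the clock list it was called in 6 of 22 genes, all with the MI effect lower. These include *Nr1d2*, the second REV-ERB gene, chosen after its values were seen (-2.02 against -1.10, limma adjusted p of the difference = 0.00997), and *Clock* and *Rora*, chosen the same way, which changed by -0.81 and -0.93 in MI and by 0.54 and 0.07 in sham. The hour at which each mouse was dissected was not in the labels used here, and its part in the clock result was not tested.

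**Figure D3:**
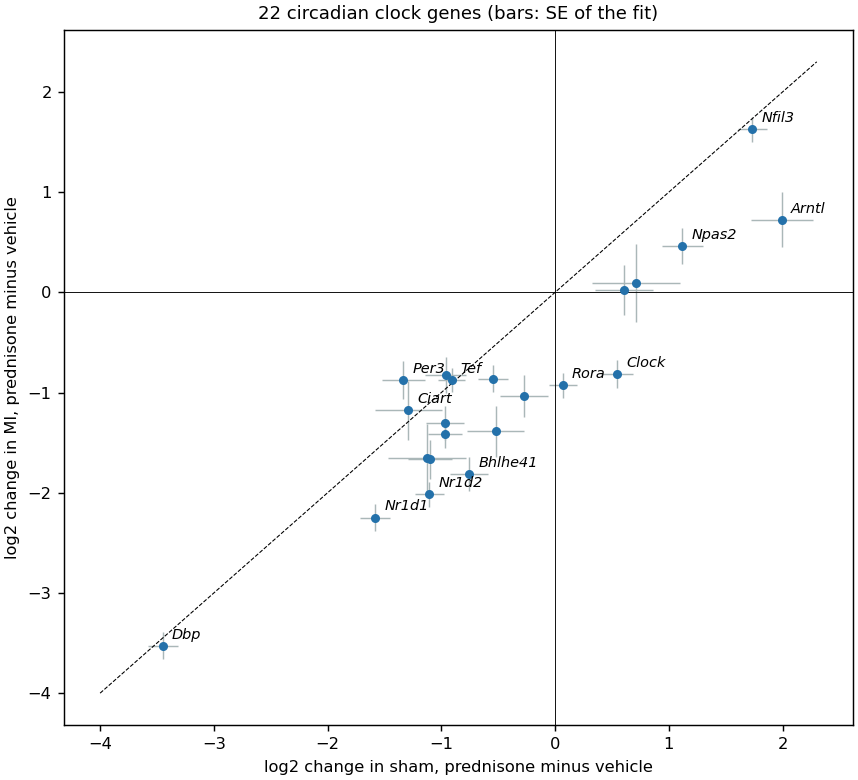
Log2 change with prednisone of the 22 tested circadian clock genes in sham (horizontal axis) and MI (vertical axis); bars are the SE of the limma fit and the dashed line marks equal change. Dbp and Nfil3 lie near the line, 20 of the 22 genes have the same sign on both axes, and Clock and Rora do not.

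The transcripts behind a gene-level value did not always move together. Of the 329 genes that rose, 277 had a tested sum of protein-coding transcripts. By that sum 178 rose and 20 were called lower as deposited, with coding changes from -0.33 to -1.56. Of the 1870 that fell, 1579 had a tested coding sum, 1222 fell by it and none was called higher as deposited. Of all coding sums 45.3% were called lower and 2.17% higher as deposited, and the difference between risers and fallers was not tested. *Lama5* (chromosome 2, 180176373 to 180225859), a laminin chain of the basement membrane, had 8.67, 8.95 and 7.12 TPM in MI vehicle and 31.9, 43.6 and 28.9 in MI prednisone, a gene-level change of 1.94. Its 11388-base coding transcript stood at 6.74, 6.63 and 5.74 TPM against 5.67, 8.60 and 7.34, and a 478-base noncoding transcript was listed at 0 in all 3 vehicle mice and at 8.59, 8.45 and 5.30 TPM with prednisone. *Hspg2* (perlecan, a basement membrane proteoglycan) went from 41.2, 53.9 and 39.9 TPM to 103, 98.4 and 92.3 as a gene. An 820-base noncoding transcript carried this (18.7, 28.4 and 19.3 against 83.5, 78.0 and 70.5 TPM), while the coding sum changed by -0.14 (limma adjusted p = 0.368). *Stab1*, a scavenger receptor of macrophages and sinusoidal endothelium, rose as a gene (0.95), while its 7999-base coding transcript, tested on its own, fell from 10.5, 14.4 and 12.4 TPM to 3.63, 4.30 and 2.92.

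*Hk2* (chromosome 6, 82725025 to 82774454), hexokinase 2, differed in direction between its transcripts. As a gene it went from 39.2, 34.7 and 30.8 TPM to 72.7, 76.1 and 53.3. Its 5513-base coding transcript was called lower as deposited, at 38.1, 34.1 and 30.6 TPM against 22.6, 20.2 and 31.4 (limma adjusted p = 0.0379), with MI prednisone mouse 3 inside the vehicle range. In contrast, a 594-base noncoding transcript was listed at 0 in all 9 other mice and at 50, 55.9 and 21.9 TPM in the 3 MI prednisone mice. *Atp5b*, the catalytic beta subunit of ATP synthase, rose as a gene by 0.65. Its 1916-base coding transcript went from 1945, 1947 and 1768 TPM to 1292, 1439.8 and 1764, lower by 0.34 (limma adjusted p = 0.0443), and a 478-base noncoding transcript rose from 338, 513 and 513 to 2119, 2803 and 1423. *Cspg4*, the NG2 proteoglycan of pericytes, rose by 0.54 as a gene and its coding sum was called lower as deposited (-0.85). The gene-level call was lost without MI prednisone mouse 1 or 2 (limma adjusted p = 0.0587 and 0.0592). *Mcm3ap*, an RNA export and splicing factor, rose by 0.98, with its 6427-base coding transcript at 3.27, 3.77 and 6.11 TPM against 2.73, 3.49 and 3.13. *Mrps35*, a mitochondrial ribosomal protein, rose by 0.59, and its coding sum changed by 0.14 (limma adjusted p = 0.571). In contrast, *Tnni3*, *Ndufa3*, *Cox7a1*, *Myl7* and *Nfil3* were higher in their coding sums too, by 0.50, 0.63, 0.79, 2.04 and 1.63.

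**Figure D4:**
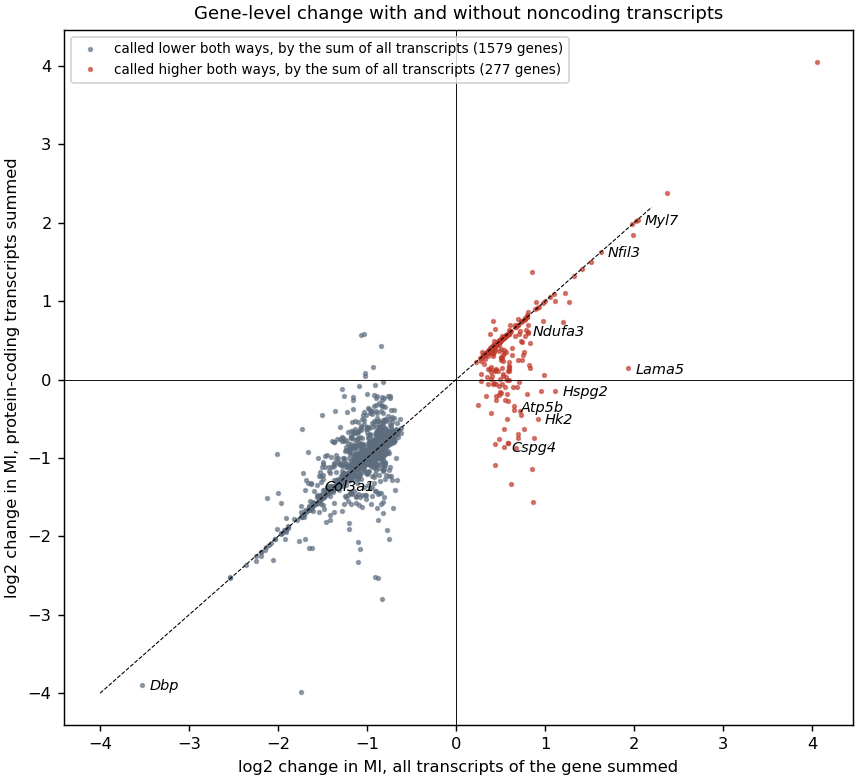
Log2 change in MI of each gene that rose or fell, from all its transcripts summed (horizontal axis) and from its protein-coding transcripts alone (vertical axis); the dashed line marks equal change. Points of the 1579 genes that fell stay in the lower left apart from a few, while 277 genes that rose spread down from the line, with Lama5, Hspg2, Hk2, Atp5b and Cspg4 far below it.

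Transcripts annotated as retaining an intron were higher with prednisone in MI as a class. Tested transcript by transcript, 27769 passed the same filter, and limma called 5.92% higher and 27.1% lower. Of 2983 retained-intron transcripts 16.3% were called higher and 9.49% lower, with a median change of 0.16, while 18137 protein-coding transcripts had 3.68% higher, 32.4% lower and a median of -0.45. In sham the medians were 0.03 and 0.07. The class stood above coding transcripts in every length range examined, for instance 0.22 against -0.30 between 1000 and 2000 bases and 0.30 against -0.46 between 2000 and 4000 bases. Retained-intron transcripts held 2.89%, 3.05% and 3.22% of nuclear TPM in MI vehicle, 4.17%, 4.82% and 3.67% in MI prednisone, and 3.00% to 3.19% in the 6 sham mice. All 3 MI prednisone mice lie above the other 9 (MI prednisone minus vehicle 1.16 percentage points, exact permutation p = 0.1, two-sided, the smallest that 3 against 3 mice can give).

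Within genes the same direction was seen. In 1941 genes with both a retained-intron and a coding transcript tested, the median log2 level of the retained-intron transcript minus the coding one was -2.14, -2.09 and -2.32 in MI vehicle, -1.59, -1.33 and -1.66 in MI prednisone, and between -2.06 and -1.94 in sham. The retained-intron transcript changed more upward than its coding partner in 71.3% of these genes in MI and in 45.2% in sham. Some transcripts appeared or vanished by group. Counted as at least 1 TPM in all 3 mice of a group and under 0.1 TPM in the other 9, 27 transcripts were present in MI prednisone alone, against 0 in MI vehicle, 1 in sham vehicle and 0 in sham prednisone. In reverse, 94 transcripts were under 0.1 TPM in all MI prednisone mice and at 1 TPM or more in the other 9, against 0, 1 and 0 for the other groups. These limits were chosen after the values were seen. Of the 27, 17 were annotated protein-coding, 4 retained-intron and 4 processed transcripts, and of the 94, 64 were protein-coding. Among all 27769 tested transcripts, 18137 were protein-coding, 2983 retained-intron and 2427 processed transcripts. A retained-intron label describes the annotated transcript, and TPM for overlapping transcripts of a gene is an estimated division of shared reads.

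**Figure D5:**
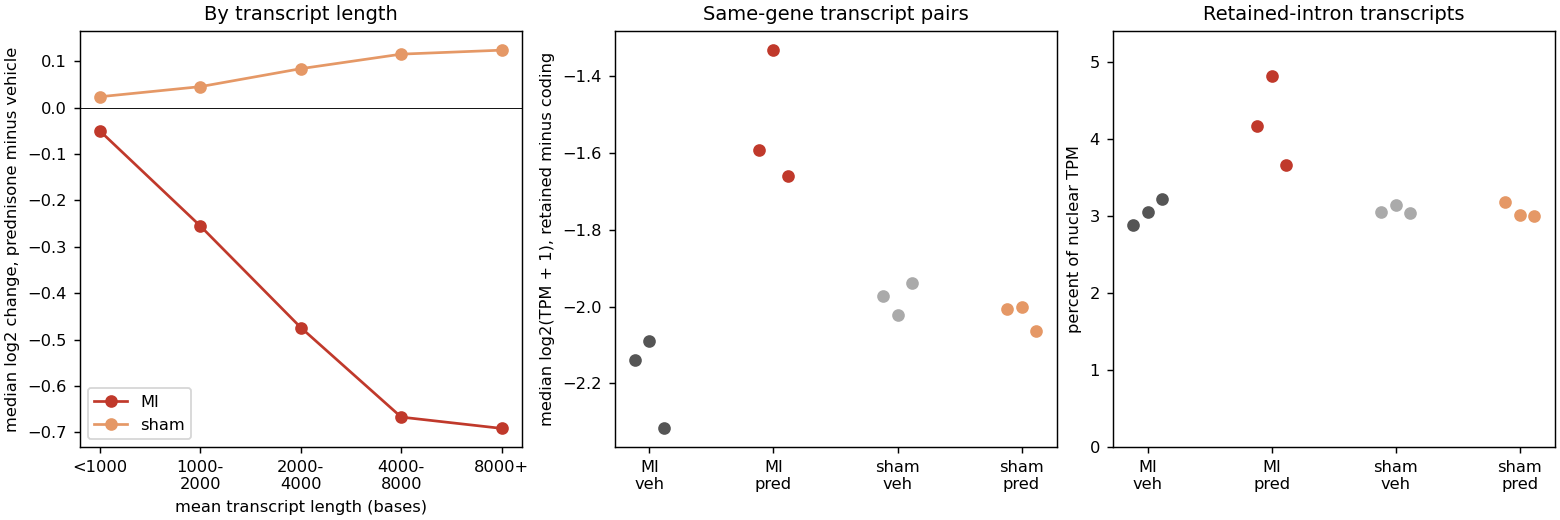
Left: median log2 change with prednisone by mean transcript length, in MI and sham (13158 genes less those without a length). Middle: median log2 level of retained-intron minus coding transcripts over 1941 genes, 1 point a mouse. Right: percent of nuclear TPM in retained-intron transcripts, axis from 0. The MI line falls from -0.05 below 1000 bases to -0.69 at 8000 bases and more, and the 3 MI prednisone mice stand above the other 9 in the middle and right panels.

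The change in MI went with transcript length across genes. The length of a gene is the mean over its transcripts, weighted by their TPM in all 12 libraries, the MI prednisone ones included. A gene whose short transcript rose is thereby given a shorter length, so length is not independent of the values compared. The median change in MI was -0.05 in 1752 genes under 1000 bases, -0.26 from 1000 to 2000, -0.47 from 2000 to 4000, -0.67 from 4000 to 8000 and -0.69 in 175 genes of 8000 bases or more. In sham the same bins went from 0.02 to 0.12. Protein-coding transcripts tested one by one have a fixed annotated length. Their median change in MI was -0.38 under 500 bases, -0.33 from 500 to 1000 and -0.30 from 1000 to 2000. It was -0.46 from 2000 to 4000 and -0.62 at 4000 bases or more. On rescaled values, 33.0% of the shortest genes were called higher and 3.25% lower, and 2.29% and 33.7% of the longest. Each MI prednisone library showed it: the Spearman correlation of its deviation from the sham vehicle mean with length was -0.38, -0.40 and -0.25 across genes, which are not independent, and lay between -0.12 and 0.24 in the other 9 libraries. With length corrected per library, 2131 of 11894 genes were called (17.9%), 1029 higher (8.65%) and 1102 lower (9.27%), and 250 of 313 risers and 906 of 1677 fallers with a length kept their call and direction. By coding sums on both scales and length correction together, 133 risers and 691 fallers remained. Nuclear copies of mitochondrial sequence, as annotated, also held more of these libraries, with 17.7%, 20.3% and 15.3% of TPM in MI prednisone against 9.32% to 14.6% in the other 9, and their part was not tested. The change in MI also went with the share of G and C bases (GC). From 2000 to 4000 bases the median was -0.59 under 45% GC and -0.36 at 55% or more, against 0.10 and 0.07 in sham. Under 1000 bases and at 8000 or more the order by GC was not steady. Length, retained introns and the drug move together in these 3 libraries, and their parts and that of GC cannot be told apart here.

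Whether prednisone acted differently after MI than after sham surgery was tested as the difference between both effects. Limma called 2797 of 13158 genes (21.3%), 71 with the MI effect higher and 2726 lower. After rescaling 1323 were called (10.1%), 674 higher (5.12%) and 649 lower (4.93%), and 69 and 649 genes were called in the same direction on both scales. With length corrected, 316 were called, 123 higher and 193 lower. On the positive side *Lgals4* (1.97), *Lama5* (1.85), *Myh7b* (1.30) and *Hspg2* (1.20) had the largest differences among named genes, and on the negative side *Pakap* (-2.77), *Olfr1033* (-2.62), *Cd300ld3* (-2.40) and *Lrrn4* (-2.38). The log2 change of *Col3a1* was -1.56 in MI and 0.38 in sham (limma adjusted p of the difference = 0.0063). That of *Ppara* was -1.53 in MI and 0.55 in sham (limma adjusted p of the difference = 0.00526), and that of *Ndufa3* was 0.78 and 0.10 (limma adjusted p of the difference = 0.0225). For *Dbp*, *Nfil3* and *Tef* the difference between MI and sham was not called (limma adjusted p = 0.783, 0.674 and 0.905).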

How the data were processed

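Libraries were made with a stranded mRNA kit from total RNA of 12 hearts, 3 mice a group, per the labels' protocols. The authors deposited 1 table of TPM for 105129 transcripts, each library summing to 1000000, with no counts, so depth and counting error are unknown. Trimmomatic, HISAT2, kallisto and mm10 are named, per the submitters' processing notes, without versions or roles. Transcripts were summed to 33641 symbols, and limma 3.58.1 in R 4.3.3 tested the 13158 that reached 1 TPM in 3 or more libraries, on log2(TPM + 1), with 4 group means, a mean-variance trend and Benjamini-Hochberg adjustment. The script was tested on simulated data. Rescaling used median ratios, and length correction a loess curve per library (span 0.5). Biotypes and lengths came from GENCODE M21, which matched 94.7% of transcripts, and coordinates are mm10. Gene lengths are means over transcripts weighted by their TPM in all 12 libraries. Same-numbered vehicle and prednisone mice had correlated deviations of -0.06, -0.43 and -0.26 in MI, so numbers were not taken as pairs. Named genes were the 12 largest rises and falls, up to 2 rises, 2 falls and 2 abundant genes of each list, 4 differences from sham each way and a set of 25 genes of interest; some genes that this rule names are not reported here. Members and lists were chosen with earlier results of these data known.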

Additional observations from a re-analysis of the deposited data

Results flagged for a closer look

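The effect of prednisone in MI minus its effect in sham was called by limma in 2797 genes, and each named gene below was called on deposited and on rescaled values. Values are log2 differences between both effects. Genes of muscle metabolism and contraction with a positive difference were Atp5b (0.57), Cox4i2 (0.78), Cox7a1 (0.63), Ndufa3 (0.69), Ndufa4 (0.69), Ndufa5 (0.73), Mpc2 (0.55), Hk2 (0.77), Tnni3 (0.67) and Myh7b (1.30). Basement membrane, pericyte and epithelial genes with a positive difference were Lama5 (1.85), Hspg2 (1.20), Cspg4 (0.69) and Lgals4 (1.97). In Atp5b, Hk2, Hspg2 and Cspg4 the coding sums had the opposite sign from the gene sums in MI. The coding transcript of Mpc2 given above was not called in MI, and that of Lama5 overlapped between the MI groups. A short noncoding transcript was higher with prednisone in both.

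Negative differences were found in scar, epicardial and myeloid genes, with Col3a1 at -1.94, Lrrn4 at -2.38, Wt1 at -1.44, Lyve1 at -2.17 and Cd300ld3 at -2.40. Among regulators, Ppara was at -2.08, Gabpa at -1.58, Nr3c1 at -1.33, Kdm5a at -1.70 and Atrx at -1.71. Clock genes with a negative difference were Arntl (-1.27), which was higher with prednisone in sham, and Clock (-1.36). Others were Nebl (-1.74), Lamp2 (-1.25), Gbp7 (-1.29), Olfr1033 (-2.62) and Pakap (-2.77). With length corrected, the count of 2797 was 316.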

How the results depend on the processing

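Results below are limma calls at an adjusted p under 0.05. In MI the count of 4917 was 808 when only the 6 MI libraries were fitted, which also took the call from 35 of the 80 called genes named in the text. It was 2131 with transcript-length correction, 1974 with length and GC correction, 2032 with length correction and no MI vehicle 3, and 1524 with the replicate block and length correction; the replicate block alone gave 4434. Leaving out 1 mouse gave 3245 to 6274 in MI, 4 to 9 in sham and 1111 to 4520 for the difference between them. The sham count of 15 was 7 with the replicate block. The count of 2797 differences was 1323 after rescaling, 316 with length correction and 161 with the replicate block and length correction, and 2352 with the replicate block alone. The split between higher and lower calls in MI, 329 and 4588 as deposited, was 1917 and 1870 after rescaling, 1029 and 1102 with length correction, 1639 and 1680 for rescaled coding sums, and 602 and 4946 without mitochondrial and globin genes. Signs turned in 8 genes. Igkc ran from -2.87 to 0.36 when 1 mouse was left out, the latter without MI vehicle 3, and without that mouse was 0.62 with rescaling and 0.20 with length correction. Coding sums gave -0.34 for Atp5b, -0.50 for Hk2, -0.14 for Hspg2, -0.14 for Stab1 and -0.85 for Cspg4 (-0.55 rescaled). Transcripts tested one by one gave -0.34 for Atp5b, -0.47 for Hk2, -1.54 for Stab1 and -0.36 for Mcm3ap. Postn was 0.054 after rescaling, 0.024 with length correction, with or without the replicate block, and 0.13 with length and GC correction. The fits on coding sums, with GC correction, or combining rescaling or length correction with the removal of MI vehicle 3 were chosen after seeing the data. The cause of these differences was not tested. Of 88 genes followed under these alternatives, 80 were called and 33 kept their call in every alternative run. The 3 MI vehicle mice spread widely, and depth is unknown.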

Other observations

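Endothelial, smooth muscle and immediate early genes were mostly not called on both scales in MI. Of 22 endothelial markers 1 rose and 2 fell, of 12 smooth muscle and pericyte markers 1 rose and none fell, and of 24 immediate early genes 3 fell and none rose, where 2.5% of all genes rose and 14.2% fell. Of 12 ventricular cardiomyocyte markers 5 rose and none fell, and of 16 atrial and sinus node genes 4 rose and 1 fell. None of 9 erythroid or 5 Schwann cell and neuronal markers was called on both scales.

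Outside the clock, the 15 genes called in sham by limma included Tcap, which encodes the Z-disc protein telethonin. It was lower with prednisone in sham (-1.55) and in MI (-0.96), and was chosen after its values were seen.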
